A study of Mus musculus with 24 samples.

Results

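The 10 genes of antibody class and IgA transport described here were taken from the 23891 genes of the lung RNA-Seq table by their gene symbols: the constant regions of the immunoglobulin heavy chain (Ighm, Ighd, Ighg3, Ighg1, Ighg2b, Ighg2c, Ighe and Igha), the joining chain (Jchain) and the polymeric immunoglobulin receptor (Pigr). RNA came from the left lung lobe of C57BL/6 mice, in 24 samples of 4 groups. Adult mice (20 wk old, n = 5) and one group of aged mice (80 wk old, n = 5) received saline. The other aged mice (80 wk old) were challenged with house-dust mite (HDM), a common aeroallergen, at 50 µg per dose, either alone (n = 7) or together with dexamethasone (Dex), a glucocorticoid drug injected intraperitoneally once per 72 h at 4 mg/kg (n = 7). The final HDM dose preceded lung collection by 24 h. All mice were of the same inbred strain with no transgene, and HDM was given to no adult mouse in these data. Expression is given as CPM, the counts of a gene after each sample was scaled to the same total over all genes.

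A B cell first makes the µ and δ heavy chains from one long transcript that reads through Ighm and Ighd. Class switching then deletes the DNA up to a downstream constant region, so that the same antigen-binding part is joined to a γ, ε or α chain. In the mouse, IL-4 is known to direct switching to IgG1 and IgE, IFN-γ to IgG2c, and TGF-β to IgA and IgG2b. Plasma cells secrete the product. The joining chain links IgA into dimers and IgM into pentamers, and Pigr, on the basolateral face of airway epithelial cells, binds these joined forms and carries them to the lumen, where its outer part is released as secretory component.

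The 8 constant regions lie in a row on the minus strand of chromosome 12 in GRCm38, in the order Ighm, Ighd, Ighg3, Ighg1, Ighg2b, Ighg2c, Ighe and Igha, and Igha starts 162 kb downstream of Ighm. Jchain is on the minus strand of chromosome 5 (chr5:88519809-88527891) and Pigr on the plus strand of chromosome 1 (chr1:130826684-130852249). The first 60 bases of the first constant exon, as annotated by GENCODE M21, are shown to let the reader see what separates one class from another in the reads. Capitals in the 3 other γ genes mark bases that differ from Ighg1.
Ighm: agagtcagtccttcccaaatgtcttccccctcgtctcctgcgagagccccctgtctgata
Ighd: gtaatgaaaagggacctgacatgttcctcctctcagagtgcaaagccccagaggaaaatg
Ighg3: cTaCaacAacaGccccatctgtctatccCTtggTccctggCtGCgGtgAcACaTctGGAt
Ighg1: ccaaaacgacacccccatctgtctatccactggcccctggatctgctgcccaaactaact
Ighg2b: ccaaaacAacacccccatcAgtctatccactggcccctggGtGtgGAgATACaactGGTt
Ighg2c: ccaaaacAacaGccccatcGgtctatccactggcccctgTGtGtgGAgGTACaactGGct
Ighe: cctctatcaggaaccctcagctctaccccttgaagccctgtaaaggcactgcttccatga
Igha: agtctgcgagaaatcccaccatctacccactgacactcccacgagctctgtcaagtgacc
Over these 60 bases Ighg2b differed from Ighg1 at 13 positions, Ighg2c at 14 and Ighg3 at 18. Since the γ genes are alike, their annotated transcripts were split into every distinct stretch of 50 bases, the length of one read. Of these stretches, 0.393% of those of Ighg1, 1.58% of those of Ighg3, 4.15% of those of Ighg2b and 5.49% of those of Ighg2c also occurred in another γ gene. No stretch of Ighm, Ighd, Ighe or Igha occurred in any other annotated gene. How reads that fit more than one gene were counted is not given in the sources used here, and whether counting used strand is not either.

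Among the members, Pigr is the one that epithelial cells express, and the 250 bases before its annotated start (chr1:130826434-130826683, plus strand, GRCm38.p6, RefSeq) are given because Pigr was raised after HDM with and without Dex. Capitals mark the matches to the motifs searched on both strands.
Pigr: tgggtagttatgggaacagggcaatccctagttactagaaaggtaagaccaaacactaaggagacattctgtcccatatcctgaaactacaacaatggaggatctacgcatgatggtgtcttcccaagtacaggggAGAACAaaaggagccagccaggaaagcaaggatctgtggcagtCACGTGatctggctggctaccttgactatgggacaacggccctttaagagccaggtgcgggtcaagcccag
The letters AGAACA, a half-site of the glucocorticoid receptor, occurred once, starting 114 bases before the start, and 16.1% of 32851 gene windows of the same length held it. CACGTG, an E-box, occurred once, 71 bases before the start, and was held by 6.02% of windows. The octamer ATGCAAAT (1.6% of windows) and the spaced STAT motifs TTCNNNGAA (7.02%) and TTCNNNNGAA (5.85%) were not found. None of these 5 motifs occurred in the same window before Jchain. A match describes letters and not binding.

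The depth of the samples was estimated at 10.1 to 33.1 M reads from the spacing of low CPM values, so that 3 reads, taken as the floor of detection, stood for 0.0906 to 0.298 CPM, which covers counting error only. Markers of lung tissue (alveolar Sftpc and Ager, airway Scgb1a1 and Foxj1 and others, 10 of 10) were all detected. A pair of measures of the samples moved with the groups. The share of 7SL RNA, an abundant noncoding RNA, was 9.92% to 18.1% in aged saline samples, 27.1% to 34.0% in HDM replicates 1 to 5 and 14.96% to 15.4% in HDM replicates 6 and 7. It was 13.6% to 42.0% in adult and 11.3% to 31.6% in HDM + Dex samples. By Xist and Ddx3y, the adult samples were 5 females, the aged saline samples 2 females and 3 males, the HDM samples 2 females (replicates 6 and 7) and 5 males, and the HDM + Dex samples 4 females and 3 males. Within the HDM group, sex and 7SL share therefore cannot be told apart, and adult against aged is in part female against both sexes. Over all genes tested, the median log2 fold change for HDM vs. saline was -0.23, and 717 genes were higher against 3765 lower. Rescaling by median of ratios brought the median to -0.02 and the counts to 1901 and 2096. It changed HDM + Dex vs. saline from 79 higher and 256 lower to 92 and 79, and aged vs. adult from 105 and 11 to 115 and 74. Leaving out 7SL RNA changed HDM + Dex vs. HDM from 133 higher and 38 lower to 296 and 162. In bulk RNA, fewer cells of a type and less RNA per cell cannot be told apart.

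The first comparison asked how antibody class transcripts differed with age in unchallenged lungs. Ighm, Jchain, Igha, Ighg1, Ighg2b and Ighg2c were higher in aged than in adult saline mice, and in each of these 6 genes every aged sample lay above every adult sample. Ighm, the heavy chain of IgM, was at 34.6, 74.0, 84.1, 66.1 and 109.8 CPM in the adult samples and at 651, 3291, 3167, 3587 and 490.2 CPM in the aged samples. The aged samples fell into a group of 3 at 3167 CPM or more and a pair at 651 CPM or less, all over the highest adult sample. The mean rose from 73.7 ± 27.4 to 2237 ± 1530 CPM (SD, n = 5 each; log2 fold change 4.55 ± 0.51 SE on log2(CPM + 1), adjusted p = 0.000181, limma).

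Jchain was higher too, with 1.70, 2.52, 3.69, 8.87 and 17.05 CPM in adult and 113, 322, 489, 537 and 59.5 CPM in aged samples. Replicates 1 and 5 of the aged group, the lowest in Ighm, were also the lowest in Jchain. Its log2 fold change was 5.23 ± 0.58 (adjusted p = 0.000181). Igha, the heavy chain of IgA, rose less, from 1.13, 4.74, 3.48, 3.30 and 5.81 CPM to 11.8, 15.05, 25.96, 20.8 and 17.6 CPM. This was a log2 fold change of 2.09 ± 0.29 (adjusted p = 0.00147).

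The γ classes were low in most adult samples. Ighg2b, one of the IgG2 chains, was at 0.404, 0.346, 0.341, 0.216 and 3.07 CPM in adult and 22.3, 53.9, 91.8, 79.6 and 45.3 CPM in aged samples (log2 fold change 5.02 ± 0.37, adjusted p = 1.79e-06). Ighg2c, which C57BL/6 mice carry in place of Ighg2a, was at 0.0808, 0.0989, 0.273, 0.433 and 2.26 CPM in adult samples, 2 of them under the floor of 3 reads, and at 28.7, 84.6, 32.5, 50.4 and 34.6 CPM in aged samples (log2 fold change 4.88 ± 0.32, adjusted p = 7.56e-07). In both genes adult replicate 5 stood above the other 4 adult samples and still below every aged sample. Ighg1 was at 0.242, 0.642, 0.205, 0.0542 and 1.40 CPM in adult and 4.41, 24.6, 124, 30.3 and 3.07 CPM in aged samples (log2 fold change 3.69 ± 0.66, adjusted p = 0.012), with the aged samples spread over a 40.4-fold range. Each of these folds is on the scale with 1 CPM added and so understates the change of genes that were low in adults.

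Ighg3 was split by sex in aged lungs and did not pass the test. The 2 aged females were at 92.4 and 83.0 CPM and the 3 aged males at 1.24, 7.42 and 2.13 CPM, against 0.242, 0.198, 0.0684, 5.79 and 0.968 CPM in the adult females (log2 fold change 2.88 ± 0.88, adjusted p = 0.188). With females only, a choice made after the data were seen, the value was 5.59 (adjusted p = 2.23e-05). Of the 10 genes 7 were then called higher, as were 112 of all 17744 genes. Ighe, the ε chain of IgE, had no read in any adult sample, where 3 reads would be 0.148 to 0.242 CPM, and 0.0707, no read, 0.435, 0.553 and 0.0496 CPM in aged samples, where the 2 females lay above the floor. Ighd, a marker of mature naïve B cells that have not switched, was at 16.5 ± 7.36 and 21.7 ± 9.23 CPM (SD, n = 5 each; adjusted p = 0.609). Pigr was at 74.7, 61.3, 49.4, 64.0 and 130.5 CPM in adult and 59.8, 58.2, 81.4, 72.8 and 79.0 CPM in aged samples, with log2 fold change -0.04 ± 0.23 (adjusted p = 0.936).

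For age, 6 of 10 members were called higher, where 0.592% of all 17744 genes tested were, and none was called lower (background 0.062%). The same 6 did not overlap between the groups, where 2.91% of all genes had every aged sample above every adult sample. No member had every aged sample below (background 0.175%). All 6 were called under each of the 10 runs that left out 1 sample, and Ighg1 lost its call with 5 CPM added in place of 1 and with the replicate block combined with median-of-ratios rescaling.

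**Figure D1:**
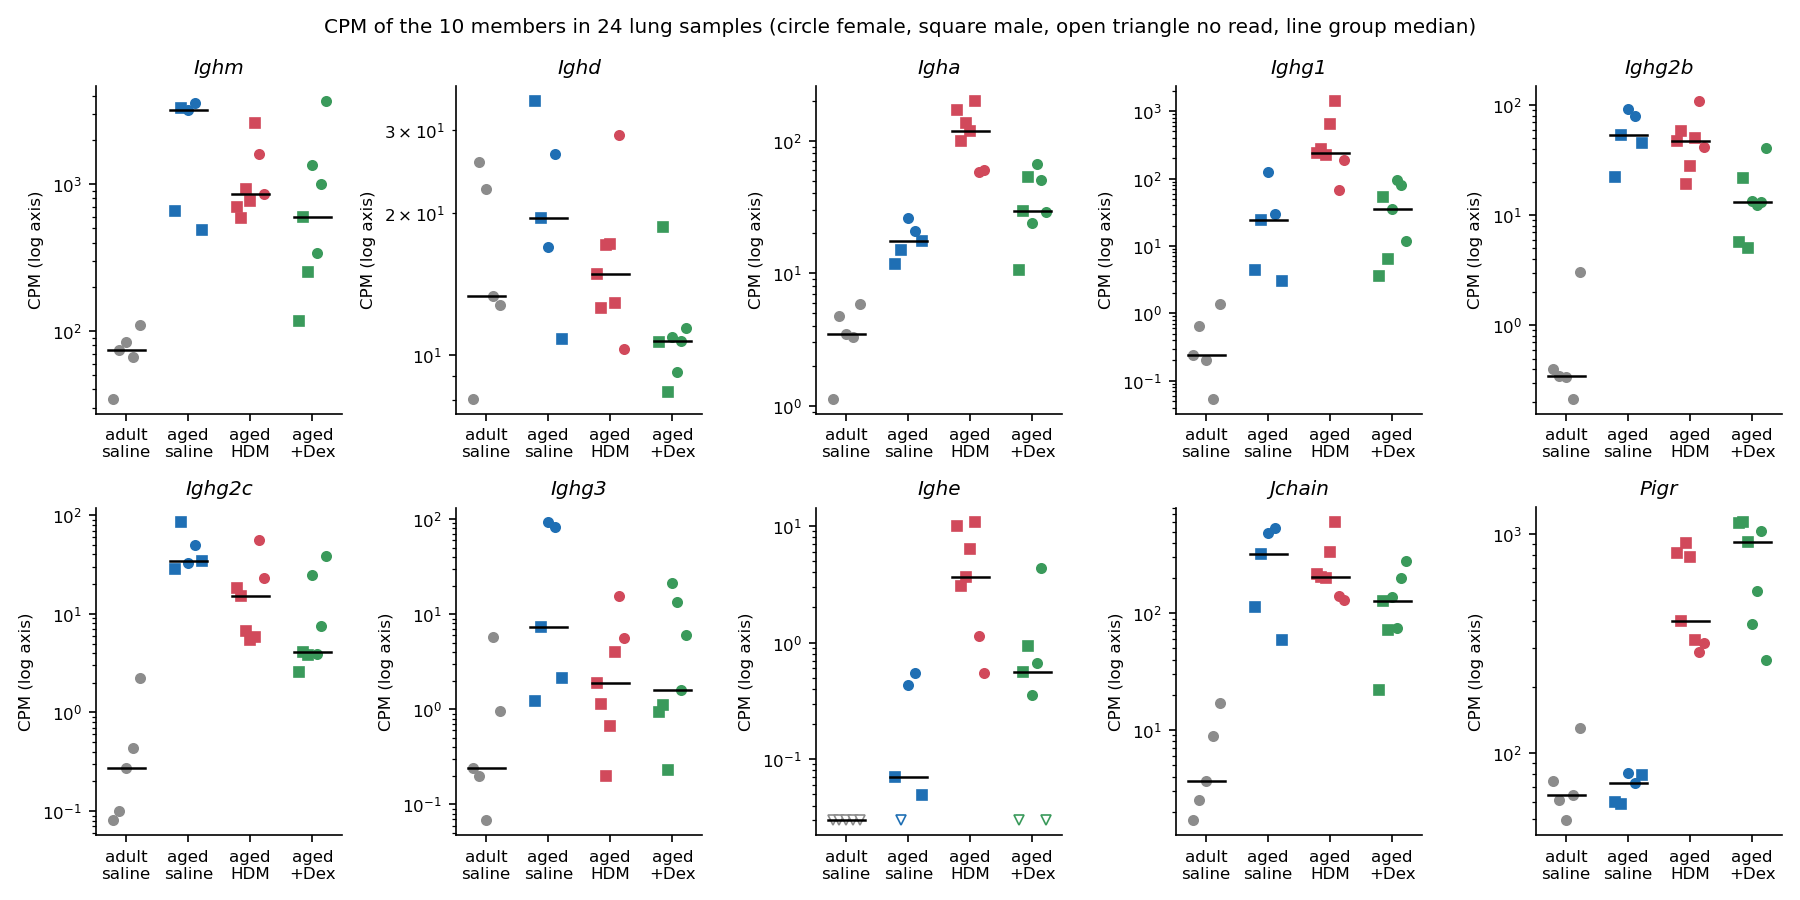
CPM of each of the 10 genes (log axis) in the 4 groups, 1 point per lung (adult saline n = 5, aged saline n = 5, aged HDM n = 7, aged HDM + Dex n = 7), with circles for females, squares for males, open triangles at the bottom of the Ighe plot for samples with no read and a line at the group median. Igha and Pigr of the 7 HDM samples lay above all 5 aged saline samples, and Pigr stayed at 266 CPM or more with Dex.

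HDM challenge of aged mice was compared with saline to see which classes followed allergen. Igha, Ighg1 and Pigr were higher and Ighg2c was lower, whereas Ighm, Ighd, Ighg2b, Ighg3 and Jchain did not pass the test. Ighg1 rose from a mean of 37.3 ± 49.9 CPM (SD, n = 5) to 439 ± 471 CPM (SD, n = 7), with HDM samples from 68.6 through a median of 237 to 1423 CPM. The lowest HDM sample lay below the highest saline sample (124 CPM), and in 34 of 35 pairs of samples the HDM one was higher (log2 fold change 3.98 ± 0.84, adjusted p = 0.00234, limma).

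Igha was at 58.4 CPM in the lowest, 118 in the middle and 199 CPM in the highest HDM sample, all above the highest saline sample at 25.96 CPM. Its mean rose 6.61-fold, to 121 ± 53.2 CPM (SD, n = 7), with log2 fold change 2.58 ± 0.36 (adjusted p = 0.00023). Ighe ranged from 0.544 through 3.68 to 10.7 CPM in HDM samples, every one of which was above its floor, against at most 0.553 CPM in saline samples, and in 34 of 35 pairs of samples the HDM one was higher. Per length, Ighe was at 3.20 ± 2.57 CPM per kb of annotated exon against 1.66 ± 2.15 for Ighg3. Ighe entered the test across genes through the HDM group alone, since its mean was 0.47 CPM over the other samples and the filter was 1 CPM. Its values in comparisons with the HDM group are therefore given as a description, with no test, and it is left out of the counts of calls there.

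Pigr, the transporter, rose from 58.2 to 81.4 CPM in saline samples to 289.8 CPM in the lowest, 398 in the middle and 909 CPM in the highest HDM sample, with no overlap. The mean rose 7.82-fold to 549.7 ± 274 CPM (log2 fold change 2.81 ± 0.35, adjusted p = 8.88e-05). Ighg2c went the other way, from 28.7 to 84.6 CPM in saline to 5.48 CPM in the lowest, 15.1 in the middle and 55.9 CPM in the highest HDM sample, and the groups overlapped (log2 fold change -1.57 ± 0.57, adjusted p = 0.0449). This call was lost in 10 of 12 runs that left out 1 sample, namely HDM replicates 1 to 5 and saline replicates 1 to 5 (adjusted p = 0.0533 to 0.107), with median-of-ratios rescaling (log2 fold change -1.34, adjusted p = 0.0682), without 7SL RNA (adjusted p = 0.0808) and in females alone (-0.17, adjusted p = 0.95). It was also lost with quantile normalization, with 0.1 CPM added, with no filter and with no trend in eBayes.

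The other classes did not pass the test. Ighm was at 589 CPM in the lowest, 855 in the middle and 2615 CPM in the highest HDM sample, all within the range of saline samples (log2 fold change -0.71 ± 0.66, adjusted p = 0.44). Jchain, with 130.3, 204 and 599 CPM as lowest, middle and highest, had a log2 fold change of 0.02 ± 0.55 (adjusted p = 0.985). The log2 fold change was -0.24 ± 0.43 for Ighg2b (adjusted p = 0.708), -0.36 ± 0.25 for Ighd (adjusted p = 0.294) and -1.94 ± 0.90 for Ighg3 (adjusted p = 0.113). With sex as a factor, Ighg3 was called lower (log2 fold change -1.61, adjusted p = 0.0234).

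Of the 9 members other than Ighe, 3 were called higher, where 4.04% of all genes tested were, and 1 was called lower (background 21.2%). Igha and Pigr had every HDM sample above every saline sample, as did 1.03% of all genes, and no member had every HDM sample below (background 7.69%). Igha, Ighg1 and Pigr were also called under median-of-ratios rescaling, without 7SL RNA and with sex as a factor.

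Some members stood apart by sex within the HDM group, whereas Ighm, Ighd and Ighg2b overlapped between the sexes. For Ighm, the 2 females held 855 and 1589 CPM and the 5 males 589 to 2615 CPM. How many of all genes split by sex in this group was not counted. The 2 HDM females had 58.4 and 60.4 CPM of Igha against 99.5 to 199 CPM in the 5 males, 0.544 and 1.14 CPM of Ighe against 3.08 to 10.7 CPM, 68.6 and 192 CPM of Ighg1 against 224 to 1423 CPM, and 130.3 and 139 CPM of Jchain against 199 to 599 CPM. For Ighg2c the order was turned, with 23.02 and 55.9 CPM in females and 5.48 to 18.1 CPM in males. In males alone, a choice made after the data were seen, the log2 fold change for HDM vs. saline was 3.18 for Igha, 5.68 for Ighg1 and 2.77 for Ighe, and in females alone it was 1.32, 0.89 and 0.28. For Jchain it was 1.11 in males and -1.92 in females. The difference between the sexes, tested with a group-by-sex term in limma, did not pass after adjustment for Igha (male minus female 1.86 ± 0.63, adjusted p = 0.217), Ighg1 (4.79 ± 1.40, adjusted p = 0.191) or Jchain (3.03 ± 0.90, adjusted p = 0.191). No gene of 17744 passed in that test, and 2774 had an unadjusted p under 0.05. The 2 females were also the samples with 14.96% and 15.4% of 7SL RNA, and the part of sex and of 7SL share in these values was not tested separately.

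**Figure D2:**
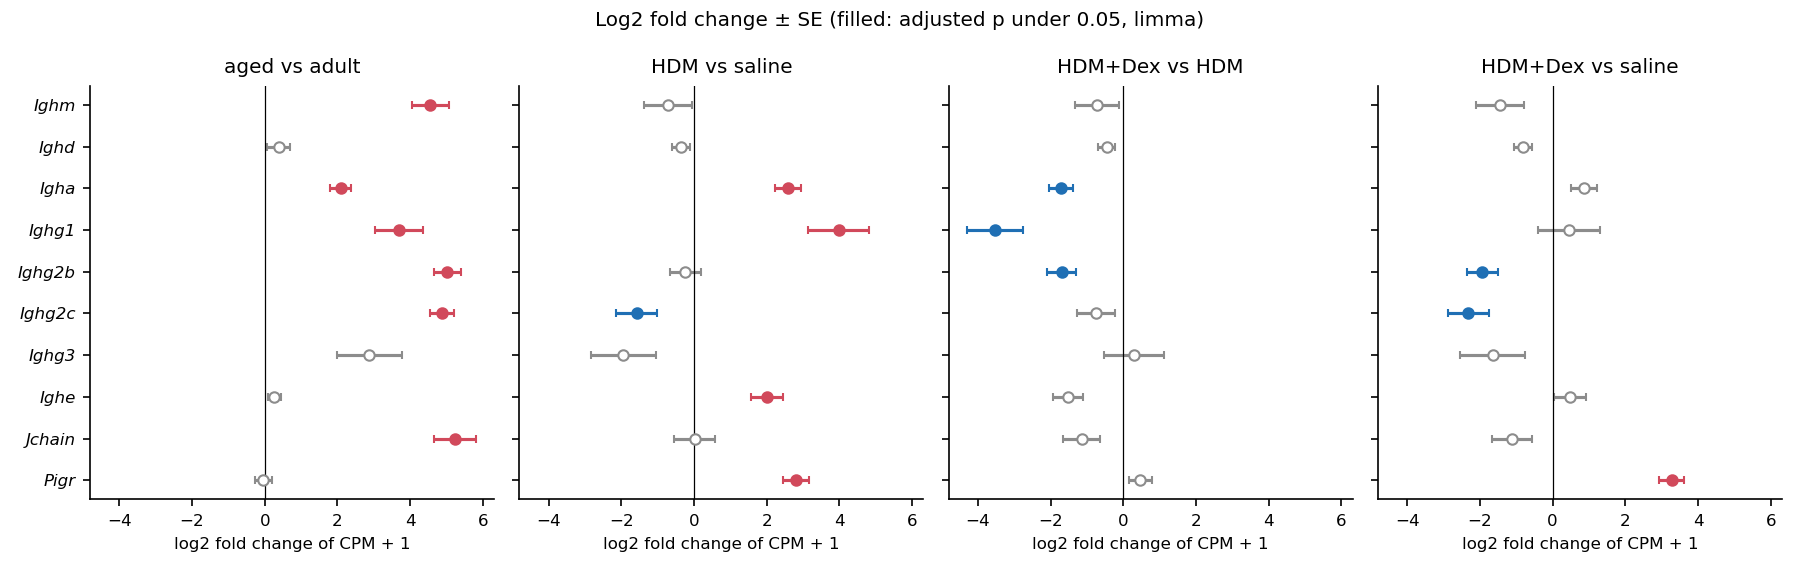
Log2 fold change of CPM + 1 with its SE (limma) for each of the 10 genes in 4 comparisons, with filled points for an adjusted p under 0.05 (red higher, blue lower), open points otherwise, and the points of Ighe against HDM samples to be read as a description. Pigr was at -0.04 with age and at 2.81 after HDM and 3.27 after HDM + Dex relative to saline, whereas Ighg1 was at 3.98 after HDM and at -3.52 for HDM + Dex relative to HDM.

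The next comparison asked which of these transcripts were lower when Dex was given with HDM. Igha, Ighg1 and Ighg2b were lower in HDM + Dex than in HDM samples, and Pigr was not. The HDM samples also enter the comparison with saline, so the directions of the 2 comparisons are not independent. Ighg1 was at 3.62 CPM in the lowest, 35.4 in the middle and 96.1 CPM in the highest HDM + Dex sample, against 68.6, 237 and 1423 CPM with HDM alone. Only the 2 highest HDM + Dex samples reached the lowest HDM sample (log2 fold change -3.52 ± 0.77, adjusted p = 0.0338, limma).

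Igha was at 10.6, 29.7 and 66.2 CPM as lowest, middle and highest with Dex, and in 47 of 49 pairs of samples it was lower than with HDM alone (log2 fold change -1.72 ± 0.33, adjusted p = 0.027). Ighg2b was at 5.02, 13.2 and 41.3 CPM with Dex against 19.2, 47.3 and 109.6 CPM with HDM (log2 fold change -1.70 ± 0.39, adjusted p = 0.0395). In each of the 3 genes the 2 groups overlapped by a few samples. Left out one at a time, HDM replicates 1, 3, 4 and 5 and HDM + Dex replicates 1 and 4 each ended the call of Igha (adjusted p = 0.0508 to 0.078). The same 6 samples and HDM + Dex replicates 3 and 5 ended that of Ighg2b (adjusted p = 0.0508 to 0.0961), and those 8 and HDM + Dex replicate 7 ended that of Ighg1 (adjusted p = 0.0546 to 0.0912). These runs also called fewer of all genes than the 133 higher and 38 lower with every sample. The counts were 1 and 2 without HDM + Dex replicate 1, 3 and 5 without HDM replicate 3 and 67 and 25 without HDM + Dex replicate 7. Over samples left out, the log2 fold change was -1.89 to -1.46 for Igha, -3.87 to -3.11 for Ighg1 and -1.96 to -1.48 for Ighg2b.

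Ighe had no read in 2 of the HDM + Dex samples, a median of 0.558 CPM and 4.38 CPM in the highest sample, replicate 6. In 42 of 49 pairs of samples the value with Dex was below that with HDM alone. Jchain was at 21.99, 127 and 282 CPM as lowest, middle and highest (log2 fold change -1.14 ± 0.51, adjusted p = 0.309). Ighm spread over a 31.4-fold range, from 117 through 599 to 3681 CPM (log2 fold change -0.73 ± 0.60, adjusted p = 0.666). The log2 fold change was -0.75 ± 0.52 for Ighg2c (adjusted p = 0.583), 0.30 ± 0.82 for Ighg3 (adjusted p = 0.922) and -0.45 ± 0.23 for Ighd (adjusted p = 0.397).

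Pigr was at 266 CPM in the lowest, 918 in the middle and 1129 CPM in the highest HDM + Dex sample (mean 771 ± 363 CPM, SD, n = 7; log2 fold change against HDM 0.47 ± 0.32, adjusted p = 0.582). In all, 3 of the 9 members other than Ighe were called lower, where 0.214% of all genes tested were, and none was called higher (background 0.75%). No member had every HDM + Dex sample above (background 0.147%) or below (background 0.0789%) every HDM sample. In females alone none of the 9 passed, with log2 fold change -0.59 for Igha and -1.39 for Ighg1, and in males alone 3 passed, with -2.40 for Igha and -5.12 for Ighg1. Of all 17744 genes, 0 were called higher and 3 lower in females alone, against 214 and 88 in males alone. The count in females is therefore no result about the members. The group-by-sex term gave adjusted p = 0.655 for Igha and 0.721 for Ighg1.

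Set against saline rather than HDM, the HDM + Dex samples held Pigr high and 2 of the γ classes low. Pigr did not overlap with saline (log2 fold change 3.27 ± 0.35, adjusted p = 2.01e-05, mean 11.0-fold higher). Ighg2b (-1.93 ± 0.43, adjusted p = 0.0288) and Ighg2c (-2.32 ± 0.57, adjusted p = 0.0402) were lower, with Ighg2c at 2.60, 4.12 and 38.3 CPM as lowest, middle and highest. Igha at 0.86 ± 0.36 (adjusted p = 0.183), Ighg1 at 0.45 ± 0.84 (adjusted p = 0.764) and Ighe at 0.48 ± 0.44 (adjusted p = 0.52) did not pass. Of the 10 members, 1 was called higher (background 0.445%) and 2 lower (background 1.44%). Pigr alone had every sample above (background 0.524%), and none had every sample below (background 1.87%). The call of Ighg2b was lost without HDM + Dex replicate 1, 3 or 6 or saline replicate 3, 4 or 5 (adjusted p = 0.0523 to 0.1). That of Ighg2c was lost in 10 of 12 such runs (adjusted p = 0.0523 to 0.0903), all but those without HDM + Dex replicates 4 and 7. It was also lost with median-of-ratios rescaling (adjusted p = 0.0523), without 7SL RNA (adjusted p = 0.0557), with no filter on low values and in females alone (adjusted p = 0.654), where that of Ighg2b was lost too (adjusted p = 0.13). Over all genes, 79 were higher and 256 lower with every sample, 27 and 39 without saline replicate 3, and 2 and 7 in females alone.

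Pigr also varied with the 7SL share among challenged mice. In the HDM + Dex group the 4 samples with over 25% of 7SL RNA, 3 males and 1 female, held 918 to 1129 CPM, and the 3 samples below, all female, held 266 to 549 CPM. In the HDM group the 5 samples over 25% held 329 to 909 CPM and the 2 below held 289.8 and 319 CPM. The adult sample with 42.0% of 7SL RNA had 74.7 CPM of Pigr, within the range of the other saline samples. The lowest challenged sample of any kind, at 266 CPM, lay above the highest saline sample of either age, at 130.5 CPM. Rescaled without the 7SL genes, the log2 fold change of Pigr was 3.05 for HDM vs. saline (adjusted p = 0.000176) and 3.46 for HDM + Dex vs. saline (adjusted p = 0.000143).

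The mix of classes was then described as the share of each gene in the summed CPM per kb of annotated exon over the 8 constant regions, a measure that does not move with the scaling of a library. Ighm took the largest mean share in all groups, with 76.9% ± 3.96 in adult saline, 89.4% ± 5.13 in aged saline, 69.6% ± 9.79 in HDM and 84.7% ± 9.06 in HDM + Dex samples (SD). Ighd took 17.6% ± 5.67 in adult saline samples and 1.62% ± 1.73 in aged saline samples. Ighg1 took 0.896% ± 0.954 in aged saline, 18.1% ± 10.4 in HDM and 4.33% ± 4.82 in HDM + Dex samples. Igha took 0.879% ± 0.74, 6.04% ± 3.10 and 4.93% ± 4.33 in the same groups.

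No share passed after adjustment over the 32 comparisons by two-sided exact permutation tests. The lowest adjusted p, 0.0634, was shared by 5 comparisons, namely Ighg1 (p = 0.00505), Ighm (p = 0.00505) and Igha (p = 0.00631) for HDM vs. saline, Ighg1 for HDM + Dex vs. HDM (p = 0.00991) and Ighd for age (p = 0.00794, exact, the smallest that 5 against 5 gives). Shares of one sample sum to 100%, so they are not independent. With shares not divided by length, these 5 and Ighm for age passed (adjusted p = 0.0466). Without HDM replicate 6, the shares of Ighm, Ighg1 and Igha for HDM vs. saline and of Ighm and Ighg1 for HDM + Dex vs. HDM passed (adjusted p = 0.0249 to 0.0346, exact), and without HDM + Dex replicate 5 the last 2 passed as well (adjusted p = 0.0404, exact). Within the 4 γ genes alone, a view chosen after the data were seen and given with no test, Ighg1 took 20.6% ± 16.8 in adult saline, 12.3% ± 12.2 in aged saline, 74.0% ± 24.9 in HDM and 43.9% ± 26.2 in HDM + Dex samples. In the HDM group this ran from 22.9% to 95.7%.

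**Figure D3:**
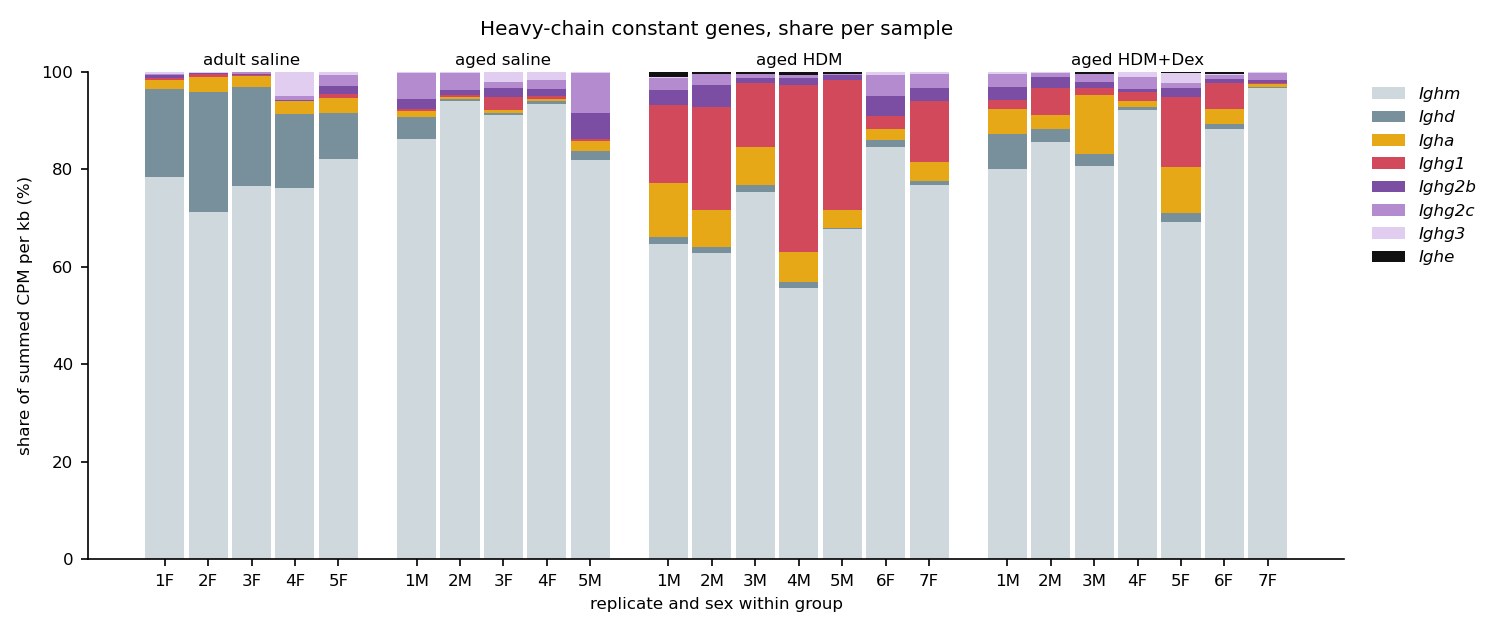
Share of each heavy-chain constant gene in the summed CPM per kb, in percent, with 1 bar per sample labelled by replicate number and sex. Ighg1 took 15.99% of the sum in the middle HDM sample and 1.8% in the middle HDM + Dex sample, and Ighd 18.1% in the middle adult sample.

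Ratios set the joining chain and the transporter against IgA in the same sample. The log2 ratio of Jchain to Igha was 0.55 ± 1.02 in adult saline, 3.67 ± 1.199 in aged saline, 1.05 ± 0.47 in HDM and 1.65 ± 1.14 in HDM + Dex samples (SD). It was lower with HDM than with saline, with no overlap between the groups (difference -2.62, adjusted p = 0.00505, exact permutation, 12 comparisons), and higher with age (3.13, adjusted p = 0.0136, exact). HDM + Dex vs. saline gave -2.02 (adjusted p = 0.0303, exact), a call lost without saline replicate 2, 3 or 4 or HDM + Dex replicate 1, 3 or 5 (adjusted p = 0.0552 to 0.0727), and HDM + Dex vs. HDM gave 0.61 (adjusted p = 0.294, exact).

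Pigr to Igha stood at 4.47 ± 0.94 in adult saline, 1.98 ± 0.28 in aged saline, 2.17 ± 0.69 in HDM and 4.39 ± 1.26 in HDM + Dex samples (log2 ratio, SD). The lowest HDM + Dex sample, at 3.05, lay above the highest HDM sample, at 2.74 (difference 2.22, adjusted p = 0.00505, exact permutation). HDM and saline differed by 0.18 (adjusted p = 0.636, exact), HDM + Dex and saline by 2.40 (adjusted p = 0.00606, exact), and aged and adult by -2.48 (adjusted p = 0.0136, exact).

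Pigr was also set against Scgb1a1, the secretory protein of club cells. Scgb1a1 fell from 4635 ± 594 CPM in aged saline to 1046 ± 725 CPM in HDM samples (log2 fold change -2.46 ± 0.48, adjusted p = 0.00143, limma). The log2 ratio of Pigr to Scgb1a1 rose from -6.05 ± 0.33 to -0.76 ± 1.70 (difference 5.29, adjusted p = 0.00505, exact permutation) and was -1.45 ± 1.80 in HDM + Dex samples (difference from HDM -0.69, adjusted p = 0.511, exact). Of 12 club cell markers, 8 were lower with HDM, where 21.2% of all genes were, including Gsta3, Scgb3a2 and Aldh1a7, and Retnla was higher (log2 fold change 5.73 ± 0.65, adjusted p = 3.76e-05). Their summed level was 6782 to 8641 CPM in aged saline, 1647 to 5020 CPM in HDM and 2597 to 7191 CPM in HDM + Dex samples. All 8 markers of heart muscle, which a lung piece can hold, were lower with HDM too, with sums of 581 to 1088 CPM in aged saline and 22.9 to 443 CPM in HDM samples (52.3 to 1272 CPM with Dex), and the part of tissue taken in these values was not tested.

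**Figure D4:**
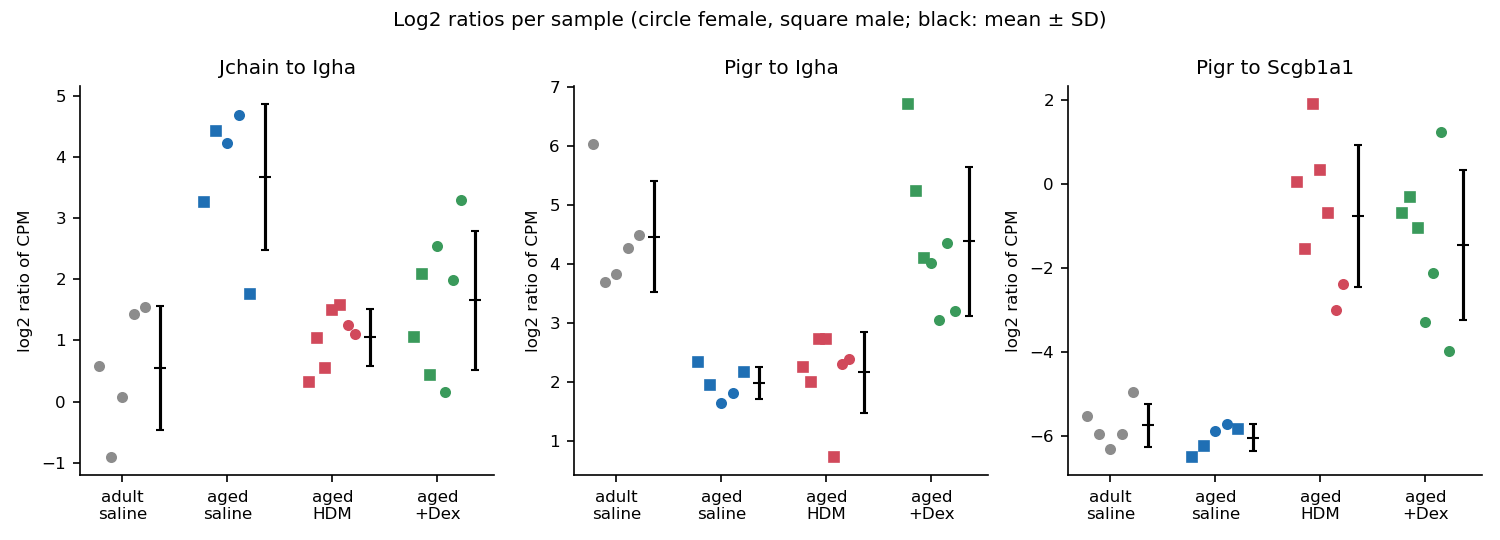
Log2 ratio of CPM per sample for Jchain to Igha, Pigr to Igha and Pigr to Scgb1a1 in the 4 groups (circles females, squares males, black bars mean ± SD, n = 5, 5, 7 and 7). All 7 HDM + Dex samples lay above all 7 HDM samples in Pigr to Igha, at 3.05 or more against 2.74 or less.

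The variation of Jchain among samples of a group was set against that of the classes, and no difference between the correlations was tested. After group means were removed from log2(CPM + 1), Jchain and Ighm had r = 0.829 and rho = 0.785 over 24 samples (adjusted p = 7e-05 and 0.00035, 100000 permutations within groups, 7 relations). Without the 2 samples farthest from the median r was 0.742, and it was 0.77 to 0.881 with each group left out in turn. Jchain had r = 0.681 and rho = 0.622 with Ighg1 (adjusted p = 0.0029 and 0.01, permutation; r = 0.548 without 2 samples) and r = 0.558 and rho = 0.587 with Ighg2b (adjusted p = 0.0168 and 0.0116, permutation; r = 0.526). With Igha it had r = 0.54 and rho = 0.45 (adjusted p = 0.0168 and 0.051, permutation; r = 0.443). For Ighg3 the values were r = 0.467 and rho = 0.465 (adjusted p = 0.0629 and 0.051, permutation; r = 0.368), and for Ighg2c r = 0.316 and rho = 0.315 (adjusted p = 0.145 and 0.129, permutation; r = 0.212). The r values of single groups differed from these. Within the 7 HDM samples Jchain had r = 0.473 with Ighm, 0.934 with Ighg1, 0.796 with Igha, -0.219 with Ighg2b, -0.291 with Ighg3 and -0.761 with Ighg2c. Within the 7 HDM + Dex samples it had r = 0.94 with Ighm, 0.491 with Ighg1, 0.429 with Igha, 0.795 with Ighg2b, 0.322 with Ighg3 and 0.749 with Ighg2c. Pigr and the mean of the club cell markers had r = -0.522 and rho = -0.488 (adjusted p = 0.0353 and 0.051, permutation), and r was -0.388 without 2 samples. This relation rested on the HDM group, with r = -0.862 within it, -0.226 with it left out and -0.426 within the HDM + Dex group. Samples of a group differ in sex and 7SL share, and the part of these in the relations was not tested.

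Genes that make or serve antibody were counted from fixed lists. Of 19 plasma cell genes tested, 4 were higher with age: Mzb1, a chaperone of IgM assembly (1.71 to 16.7 CPM, log2 fold change 2.48 ± 0.37, adjusted p = 0.00327), Eaf2, Derl3, which serves degradation of misfolded protein, and Trp53inp1. The median log2 fold change of the list was 0.85, against 0.19 over all genes. None of 20 mature B cell genes, such as Ms4a1, passed with age (median 0.64). Of the genes that bring plasma cells to tissue, Cxcl13, the attractant of B cells, and Cxcr3 were higher with age, 2 of 13. Over all genes, 0.592% were called higher.

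With HDM, 4 of 11 Fc receptor genes were higher, among them Fcgr2b, the inhibitory IgG receptor (26.8 to 94.0 CPM, log2 fold change 1.68 ± 0.28, adjusted p = 0.000564), Fcgr3, Fcgr1 and Fcer1g, the signalling chain that IgE and IgG receptors share. Of 14 genes for switch and survival factors, Tgfb1, Tnfsf13, which encodes APRIL, and Cd40 were higher (log2 fold change 0.65, 0.71 and 0.56). Slamf7 was higher and Trp53inp1 lower of the 19 plasma cell genes, Ltb higher and Cd55 lower of the 20 mature B cell genes, and Ung higher and Rif1 and Trp53bp1 lower of 17 class switching genes. Over all genes 4.04% were called higher and 21.2% lower, so these counts are near or below the background and are no result about the 3 lists. Among 13 genes of homing, Itgb7 was higher, and S1pr1 and Ccl28, a ligand for IgA plasma cells, were lower, again near the background. Of 14 known inducers of Pigr or parts of their pathways, 1 was higher (Nfkb2, log2 fold change 0.57 ± 0.18, adjusted p = 0.0269). Il17a of that list was below the filter and had no read in any of the 10 saline samples.

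Median log2 fold changes with HDM were 0.32 for Fc receptors, 0.30 for switch and survival factors, 0.13 for inducers of Pigr, 0.04 for plasma cell genes and -0.06 for mature B cell genes, against -0.23 over all genes. They were -0.17 for homing and -0.25 for class switching genes. For HDM + Dex vs. HDM, none of the genes tested in these 7 lists passed by limma. Only 0.75% of all genes were called higher and 0.214% lower there, so the lack of calls is no result about the lists. Medians were -0.35 for Fc receptors, -0.20 for switch and survival factors and -0.21 for plasma cell genes. They were -0.15 for inducers of Pigr, -0.11 for mature B cell, -0.02 for homing and 0.02 for class switching genes, against 0.03 over all genes. All 19 plasma cell genes were lower in value and none passed, where 56.2% of all genes had a log2 fold change above 0. Relative to saline, Tnfsf13 of 14 switch and survival factors (log2 fold change 0.91) and Fcgr2b of 11 Fc receptors (1.27) were higher with HDM + Dex. Trp53inp1 of 19 plasma cell genes and S1pr1 of 13 homing genes were lower. Of all genes, 0.445% were called higher and 1.44% lower in this comparison. Markers of lymph node and recirculating lymphocytes, which a lung piece could also hold, summed to 131.3 to 208 CPM in aged saline, 97.1 to 249 CPM in HDM and 89.0 to 170.2 CPM in HDM + Dex samples, and none of the 9 tested passed with age or with Dex. With HDM, Ltb was higher and Lef1 was lower. None of 7 red cell genes passed in any comparison, with sums of 759 to 2095 CPM in aged saline and 519.8 to 1703 CPM in HDM samples. Of the 10 lung markers, 1 was higher (Col1a1) and 5 lower with HDM, where 4.04% and 21.2% of all genes were. Col1a1 was lower with age and lower in HDM + Dex than in HDM samples. Relative to saline it was still higher with HDM + Dex (log2 fold change 0.73, adjusted p = 0.0426, limma).

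Lastly, the genes most like each member over the 24 samples were found by Pearson's r of log2(CPM + 1), with immunoglobulin genes left out. Ighm was most like Mzb1 (r = 0.959, and 0.944 with group means removed), and Jchain was also most like Mzb1 (r = 0.896, 0.762). For Ighg1 the first was Slamf7 (r = 0.899, 0.642), and for Ighd it was B3gnt5, with the B cell factor Ebf1 next (r = 0.744, 0.779). Igha was most like Gpnmb and Stra6l, and next Mmp12, a macrophage elastase (r = 0.901, 0.632). Ighe was most like Mmp13, Mmp19 and Wfdc17 (r = 0.861 to 0.895). Ighg2b and Ighg2c shared Dnase1l3 among their first 3 (r = 0.868 and 0.821), and Ighg3 had lower values, at most 0.78 with Ncoa7. Pigr was most like Retnla (r = 0.945, 0.635), Slc26a4, the anion exchanger pendrin, and Slc5a1. These values describe samples of 4 groups. With group means removed, r was lower for every pair except those of Ighd, where it was higher (B3gnt5 0.773 to 0.814).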

How the data were processed

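RNA-Seq of 24 lung samples was used. Per the paper's methods, libraries were stranded and made from mRNA, reads were paired with 50 bases each, and the authors used the Picard-STAR-limma pipeline. The submitters' processing notes name FastQC, STAR, DESeq2 and the build mm9. The authors deposited 1 table of CPM with 0.0001 added to each value. Its gene starts were those of GENCODE M21 on GRCm38 for all 10 members, and its ends were 1 base past the annotated ends. The filter on genes and the handling of strand are not given in the sources used here.

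Groups followed the labels, which number the samples without naming animals, so p-values measure the spread between these samples, which may be technical. Whole reads could not be recovered: 80.5% to 85.2% of the values below 20 reads lay within 0.05 of a whole number of reads, so no count test was run. Depth of 10.1 to 33.1 M reads was estimated from that spacing. CPM were tested as log2(CPM + 1) with limma 3.58.1 (R 4.3.3), eBayes with trend and Benjamini-Hochberg adjustment over 17744 genes (mean CPM of 1 or more), at 0.05. The 19 aged samples and the 10 saline samples were each fitted once. Fold changes on this scale understate those of low genes. All 10 members passed the filter, Ighe through the HDM group alone. For shares and ratios, exact permutation tests were two-sided (scipy 1.17.1 in Python 3.11.15, with pandas 2.3.3 and numpy 2.4.6), correlations by 100000 permutations. The limma step and the term for sex were tested on simulated data. Sex was read from Xist and Ddx3y.

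All 10 members were named in every comparison, and from each of 12 lists at most 4 genes that passed with the lowest p. For each member, the 3 genes with the highest r were named. Scgb1a1, Ms4a1 and Il17a were named as members of their lists, and some list genes are not reported here. The members and lists were chosen with earlier results of these data known. Pseudocounts of 0.1 and 5, no filter or one at 5 CPM, 3 rescalings, other samples in the fit, no trend, sample weights, a replicate block, sex and each sample left out were tried. Fits of 1 sex, the term for sex and the block with rescaling were added after seeing the data.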

Additional observations from a re-analysis of the deposited data

Results flagged for a closer look

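In 39 groups of member values with a sample above the detection floor, 12 values stood apart from the rest of their group by Dixon's test. Its chance rate of about 1 in 20 is for normally distributed values, and the test ran on CPM without logs. Each of the 12 was the highest value of its group. The gap from the value to its nearest neighbour was large against the range of the group in each. HDM replicate 6, a female, held 4 of them, with 29.4 CPM of Ighd (next 17.2 CPM), 109.6 CPM of Ighg2b (next 57.8 CPM), 55.9 CPM of Ighg2c (next 23.02 CPM) and 15.6 CPM of Ighg3 (next 5.65 CPM). Adult replicate 5 held 3.07 CPM of Ighg2b (next 0.404 CPM) and 2.26 CPM of Ighg2c (next 0.433 CPM), and adult replicate 4 held 5.79 CPM of Ighg3 (next 0.968 CPM). Aged saline replicate 3, a female, held 124 CPM of Ighg1 (next 30.3 CPM). HDM replicate 5, a male, held 599 CPM of Jchain (next 331 CPM). Among HDM + Dex samples, replicate 7 held 3681 CPM of Ighm (next 1338 CPM), replicate 2 held 18.7 CPM of Ighd (next 11.4 CPM) and replicate 6 held 4.38 CPM of Ighe (next 0.926 CPM).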

How the results depend on the processing

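Depth limited some values of low genes: at or under the floor of 3 reads were Ighe in all 5 adult, 3 aged saline and 2 HDM + Dex samples, Ighg2c in 2 adult samples, Ighg1 in 1 adult sample, and Ighg3 in 1 adult and 1 HDM sample. Of 1096 log2 fold changes under alternatives for 40 member results, 1000 stayed on the same side of the threshold, 79 lost a call, 17 gained one and none that was called changed sign, although 20 without a call did. Of 416 shares, 402 stayed and 14 gained a call, and of 156 ratios, 150 stayed and 6 lost one. These totals include Ighe, and the results for members called that follow leave it out where HDM samples enter, unless stated. The count for age (6) stayed between 5 and 7. For HDM vs. saline, Igha, Ighg1 and Pigr kept their calls in all alternatives except females only, where no member passed. In that fit 7 of all 17744 genes were called higher and 2 lower. For HDM + Dex vs. HDM (3) it was 1 without a filter on low values and 0 with only the 2 groups fitted. It was 1 with the replicate block and 0 in females only. With Ighe counted, it was 0 to 4 over samples left out. Ighe was the only member to gain a call in those runs, so the count without Ighe was at most 3. For HDM + Dex vs. saline the count (3) was 7 with sample quality weights, 5 with sex as a factor and 0 in females only. It was 1 to 3 over samples left out. Over all genes, 476 were higher and 4995 lower with these weights, and 2 and 7 in females only. Females-only fits hold fewer samples, and the cause of the other changes was not tested. For all genes, HDM + Dex vs. HDM gave 133 higher and 38 lower genes, 2 and 6 with the replicate block and 129 and 164 with sex as a factor, and HDM + Dex vs. saline gave 79 and 256 genes, 180 and 1749 with sex and 116 and 782 with the block.

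Same-numbered samples of 2 groups had correlations of their deviations from -0.238 to 0.407. Differently numbered samples were not compared, so whether the numbers pair the samples was not tested. The replicate block ended the calls of Ighg1 (adjusted p = 0.0686) and Ighg2b (adjusted p = 0.0678) for HDM + Dex vs. HDM and gave a call of Ighg3 for age (adjusted p = 0.0304).

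Without division by length, the difference in share passed for Ighm (-24.8 points), Igha (6.49) and Ighg1 (21.1) in HDM vs. saline, Ighg1 (-16.7) in HDM + Dex vs. HDM, and Ighm (13.1) and Ighd (-15.8) with age. Over samples left out, the difference in share for HDM vs. saline was -22.2 to -17.4 points for Ighm, 4.29 to 5.80 for Igha, 14.5 to 19.8 for Ighg1 and 0.28 to 0.455 for Ighe. For HDM + Dex vs. HDM it was 12.7 to 17.6 points for Ighm and -16.4 to -11.1 for Ighg1. The log2 ratio of Jchain to Igha for HDM + Dex vs. saline differed by -2.50 to -1.76.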
